A study of Ginkgo biloba with 6 samples.

Results

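Of 43190 loci counted in leaves of Ginkgo biloba, 70 were clearly induced by 14 days of ultraviolet-B (UV-B) light. The leaves came from seedlings of this gymnosperm tree, and RNA sequencing gave 3 libraries per group. The UV-B leaves received 21.42 kJ/m2 of UV-B per day for 14 days from mercury-vapor lamps. The control leaves grew for the same 14 days in white light that held no UV-B, and fluorescent tubes gave the daytime light. No genotype or age is stated for either group, and whether the 3 replicates were separate plants is not stated either. The induced loci were chosen by their measured levels. Of 23641 loci that passed a filter on low counts, 14434 averaged at least 5 CPM (counts per 1000000 reads, scaled with TMM factors, which correct for differences in library composition) over the 6 libraries. An induced locus was one of these whose lowest UV-B value was at least 2 times its highest control value, which held for 70 of 14434 (0.485%). This choice used every library, so the difference between the groups is given as a description, and calls of a genome-wide test of it are counted but support nothing. A further 164 loci had the same separation but averaged less than 5 CPM.

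UV-B is the most energetic part of sunlight that reaches plants, and it damages DNA and the photosynthetic machinery. In Arabidopsis it is sensed by the photoreceptor UVR8, which binds COP1 and so lets the transcription factor HY5 raise genes for DNA-repairing photolyases and for flavonoid enzymes. Flavonoids absorb UV-B in the outer cell layers of the leaf, and Ginkgo leaves are rich in them. The table gives identifiers without names, so the induced loci are not assigned to any of these functions here, markers of leaf and of other tissue were not examined, and only 2 loci are identified. In RNA from whole leaves, more cells of a type and more RNA per cell cannot be told apart.

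The induced loci were mostly weakly expressed in control leaves. Their mean levels ranged from 7.96 to 503.5 CPM in UV-B leaves, with a median of 21.2 CPM, and from 0.335 to 139.4 CPM in control leaves, with a median of 4.02 CPM. Over all 14434 loci of at least 5 CPM, the median control level was 23.7 CPM. The rule shaped this difference, because a locus below 5 CPM in control leaves reached the mean of 5 CPM only through its UV-B values. Control means below 1 CPM occurred in 7 of the 70 loci and in 10 of the 14434. Means from 1 to 5 CPM occurred in 33 of the 70 and in 359 of the 14434. The UV-B mean was 2.23 to 43.2 times the control mean, with a median of 4.80 times (log2 fold of 2.26), against a median log2 fold of -0.02 over the 14434 loci. A log2 fold of at least 2 was reached by 44 of the 70 loci, one of at least 3 by 20 and one of at least 4 by 5.

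**Figure D1:**
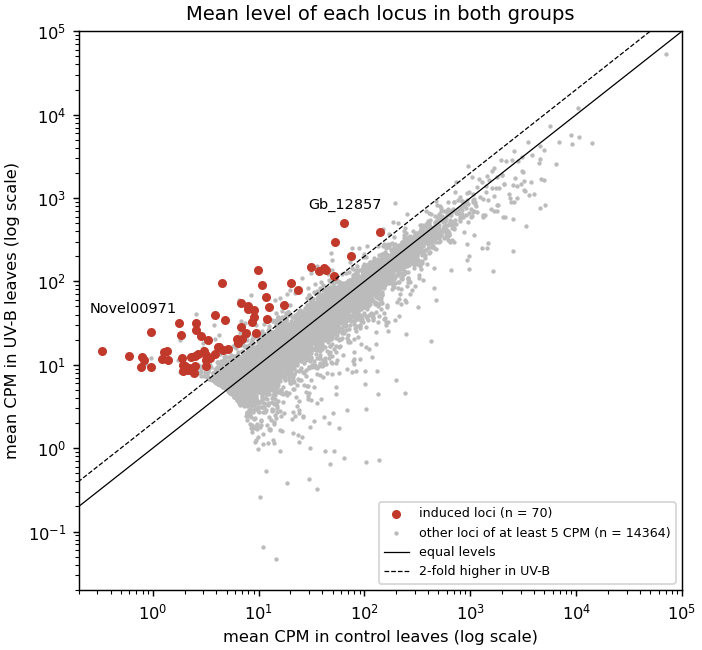
Each point is 1 of the loci averaging 5 CPM or more, placed by its mean CPM in control leaves (x axis, log scale) and in UV-B leaves (y axis, log scale). The 70 induced loci (red) lie above the dashed line of a 2-fold difference, mostly where control levels are low. Most of the other 14364 loci (grey) lie around the line of equal levels, though some lie past a 2-fold difference in either direction.

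The separation between the groups, given as the lowest UV-B over the highest control value, had a median of 2.58 among the 70 loci and a maximum of 9.13. It was at least 3 in 21 loci, at least 4 in 17 and at least 5 in 6. The 3 loci just inside the limit had separations of 2.002, 2.01 and 2.01, and the 3 just outside had 1.99, 1.99 and 1.99, so the limit of 2 falls within a continuous range. For example, the locus nearest inside had 59.7, 51.1 and 47.6 CPM in UV-B and 16.1, 23.8 and 12.7 CPM in control replicates 1 to 3. The one nearest outside had 41.9, 25.3 and 30.6 CPM in UV-B and 12.7, 4.45 and 9.39 CPM in control replicates 1 to 3. At the limit on the mean level, the nearest loci inside averaged 5.08 and 5.13 CPM over the 6 libraries and the nearest outside averaged 4.88 and 4.80 CPM.

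Novel00971 had the widest separation. It had 31.2, 23.7 and 20.3 CPM in UV-B replicates 1 to 3, against 0.662, 0.030 and 2.22 CPM in control replicates 1 to 3. The highest UV-B value was 1.54 times the lowest, while the control libraries ran from a single read in control replicate 2 to 92 reads in control replicate 3. It averaged 25.0 ± 5.57 CPM in UV-B and 0.971 ± 1.13 CPM in control leaves (SD, n = 3 each), a ratio of 25.8. The size rests in part on single control libraries. The fitted log2 fold change of 4.65 (edgeR) became 6.06 without control replicate 3 and 4.12 without control replicate 2.

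Gb_12857 reached the highest level of the induced loci in UV-B leaves. It had 299.5, 751.4 and 459.7 CPM in UV-B replicates 1 to 3, against 110.8, 53.5 and 29.9 CPM in control replicates 1 to 3. UV-B replicate 2 was the highest and control replicate 1 the highest of its group, and the lowest UV-B value was 2.70 times the highest control value. The means were 503.5 ± 229.1 CPM in UV-B and 64.7 ± 41.6 CPM in control leaves (SD, n = 3 each), a ratio of 7.78. Its fitted log2 fold change of 2.96 became 3.59 without control replicate 1 (edgeR).

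**Figure D2:**
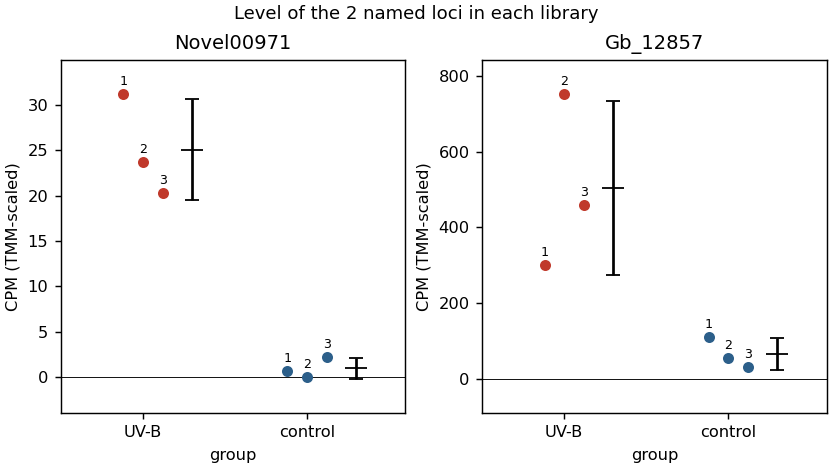
CPM of the locus with the widest separation (Novel00971, left) and of the locus with the highest UV-B level (Gb_12857, right), with UV-B libraries in red, control libraries in blue, replicate numbers beside the points, and bars for mean and SD (n = 3). The 3 UV-B values of Novel00971 lie between 20.3 and 31.2 CPM above control values of at most 2.22 CPM, and those of Gb_12857 spread from 299.5 to 751.4 CPM.

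The size of the change differed with the level in control leaves. The 7 loci below 1 CPM in control leaves had a median ratio of 15.6 and UV-B means from 9.38 to 25.0 CPM. The 33 loci between 1 and 5 CPM had a median ratio of 5.06, the 19 between 5 and 20 CPM one of 3.94, and the 11 loci of 20 CPM or more one of 3.49. The rule shaped this order, because a locus with little expression in control leaves had to rise far to average 5 CPM. The classes were set after the data were seen.

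Within each class single loci showed how wide the range was. Between 1 and 5 CPM, the locus of widest separation had 42.5, 32.6 and 18.9 CPM in UV-B and 1.83, 1.07 and 2.46 CPM in control replicates 1 to 3. Between 5 and 20 CPM, the corresponding locus had 57.3, 45.2 and 39.0 CPM in UV-B and 6.92, 8.29 and 8.45 CPM in control replicates 1 to 3. Its coefficient of variation was 19.8% in UV-B and 10.7% in control leaves (n = 3 each), and its ratio of means was 5.98. Among the 11 loci of 20 CPM or more, the one with the highest control level had 344.8, 351.1 and 480.7 CPM in UV-B and 170.0, 83.4 and 164.8 CPM in control replicates 1 to 3. The smallest ratio of means, 2.23, belonged to a locus of this class that hardly varied, with 110.1, 118.9 and 116.4 CPM in UV-B and 50.1, 53.5 and 51.2 CPM in control replicates 1 to 3.

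**Figure D3:**
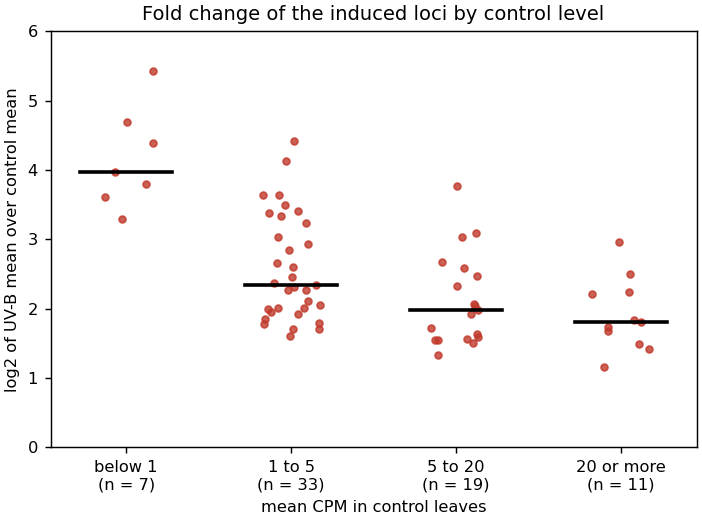
The log2 of the UV-B mean over the control mean (y axis) for each of the 70 induced loci, grouped by mean CPM in control leaves (x axis), with a black line at the median of each class and points shifted sideways for legibility. The class medians fall with control level (ratios of 15.6, 5.06, 3.94 and 3.49). The loci below 1 CPM start at a ratio of 9.75. The classes from 1 to 5 and from 5 to 20 CPM overlap them, reaching 21.3 and 13.6, while that of 20 CPM or more reaches 7.78 and does not.

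UV-B replicate 1 stood apart from the other UV-B libraries in the induced loci. It was the highest UV-B library in 47 of the 70 loci (67.1%), UV-B replicate 2 in 13 (18.6%) and UV-B replicate 3 in 10 (14.3%). Over all 14434 loci of at least 5 CPM the same shares were 32.3%, 35.0% and 32.8%, and over the 2429 of them in which all UV-B values lay above all control values they were 35.1%, 43.7% and 21.2%. UV-B replicate 1 also differed outside the induced loci. It was the lowest UV-B library in 42.5% of all loci of at least 5 CPM, against 28.2% for replicate 2 and 29.3% for replicate 3. Among the 70 induced loci it was the lowest in 12 (17.1%). The median induced locus had 27.4 CPM in UV-B replicate 1, 18.8 in replicate 2 and 19.6 in replicate 3. The count of 47 was 47 to 52 under 3 other ways of scaling the libraries. The rule could add to this pattern, since a high value in 1 UV-B library helped a locus to average 5 CPM. Without UV-B replicate 1, 53 of the 70 loci still met the rule, against 65 without replicate 2 and 62 without replicate 3. The 17 lost without replicate 1 had all fallen under the mean of 5 CPM, and the part of the rule was not tested. UV-B replicate 1 also had the largest total, 47559213 counts against 40917135 and 39066398, and the part of depth and of the library in this pattern was not tested.

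In 13 induced loci (18.6%), UV-B replicate 1 was at least 2 times both other UV-B libraries, which held for 0.901% of all loci of at least 5 CPM. No induced locus was led in this way by UV-B replicate 2 or 3, which so led only 0.547% and 0.305% of all loci of at least 5 CPM. Of the 13 loci, 7 fell under the mean of 5 CPM when UV-B replicate 1 was left out, so the rule had admitted them through that library. In these 13 loci UV-B replicate 1 was 2.09 to 15.9 times the mean of the other two, with a median of 3.002 times. The extreme case had 38.6 CPM in UV-B replicate 1 but 2.55 and 2.30 CPM in replicates 2 and 3, against 0.502, 0.238 and 0.266 CPM in control replicates 1 to 3. This locus also had the largest ratio of means of all 70, 43.2. With UV-B replicates 2 and 3 alone, the 13 loci had ratios from 3.37 to 13.9 and a median of 5.89, against a median of 9.75 with all UV-B libraries. The other 57 loci had a median ratio of 4.09 with UV-B replicates 2 and 3 and 4.12 with all 3.

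At the other end, 26 induced loci (37.1%) were evenly raised, with the highest UV-B value below 1.5 times the lowest. Of all 14434 loci of at least 5 CPM, 81.9% were as even as this. The most even induced locus had 8.85, 9.16 and 9.21 CPM in UV-B replicates 1 to 3, against 2.44, 0.742 and 3.40 CPM in control replicates 1 to 3. The even loci had a median ratio of means of 3.29. The remaining 31 loci lay between these classes, with a median ratio of 5.18, and both named loci were among them.

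**Figure D4:**
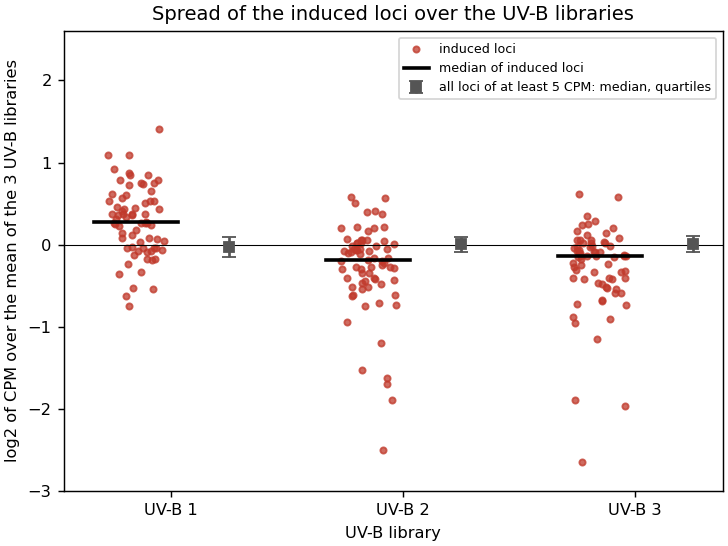
For each UV-B library (x axis), the log2 of a locus's CPM over its mean in the 3 UV-B libraries (y axis), as red points for the 70 induced loci with their median (black line), beside the median and quartiles of all loci of at least 5 CPM (grey squares and bars). The induced loci have a median of 0.27 in UV-B replicate 1, -0.19 in replicate 2 and -0.14 in replicate 3, while the medians of all loci lie within 0.03 of 0.

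The induced loci also varied more between replicates than most loci did. Their median coefficient of variation (SD over mean, n = 3 per locus) was 28.2% in UV-B and 36.3% in control leaves, against 10.9% in UV-B and 10.9% in control leaves for all loci of at least 5 CPM. In UV-B leaves the median was 70.4% for the induced loci below 1 CPM in control leaves and 31.5% for those from 1 to 5 CPM. It was 17.1% for those from 5 to 20 CPM and 27.6% for those of 20 CPM or more. The part of the control level in this difference was not tested. In control leaves, replicate 2 was the lowest library in 37 of the 70 loci (52.9%), where it was lowest in 26.7% of all loci of at least 5 CPM. Control replicate 3 was the highest control library in 33 induced loci (47.1%) and in 34.9% of all loci of that level, and replicate 1 in 24 induced loci (34.3%) and 33.9% of all. The heat map of the induced loci shows these values by library.

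**Figure D5:**
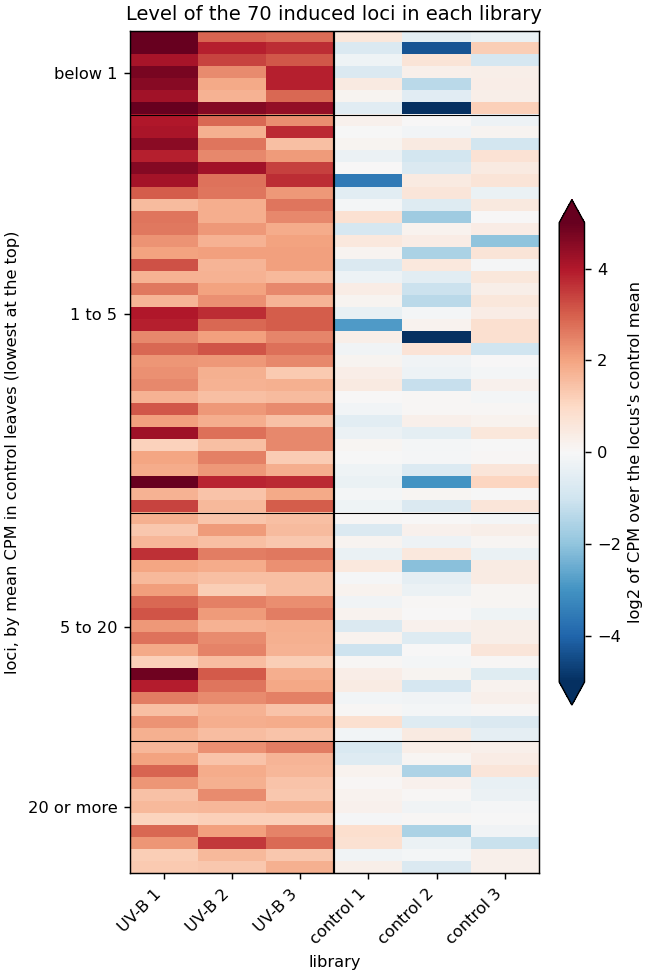
The 70 induced loci as rows, ordered by mean CPM in control leaves and split into the classes below 1, 1 to 5, 5 to 20 and 20 CPM or more, with the UV-B libraries in the left columns and the control libraries in the right ones. Colour gives the log2 of CPM over the locus's control mean, with values past 5 in either direction drawn in the end colours; UV-B replicate 1 is darkest red in many rows, and a few loci are dark blue in a single control library.

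Control reads were few for some induced loci. Summed over the control libraries they ranged from 41 to 17083 reads, with a median of 479.5, while no UV-B library held fewer than 94 reads of an induced locus. In 5 loci at least 1 control library held fewer than 10 reads, and in 3 of these it held 3 or fewer, but in none was it 0. The lowest control value decided the spread of some loci. One had 14.1, 11.2 and 14.8 CPM in UV-B replicates 1 to 3, against 3.26, 0.059 and 4.73 CPM in control replicates 1 to 3, where 0.059 CPM stood for 2 reads.

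The induced loci took a small part of the library. They held 0.413% ± 0.074 (SD, n = 3) of all counts in UV-B and 0.079% ± 0.014 (SD, n = 3) in control leaves, with 0.496%, 0.391% and 0.353% in UV-B replicates 1 to 3 and 0.091%, 0.063% and 0.082% in control replicates 1 to 3. UV-B replicate 1 was again the highest. The 3 most abundant of the 70 loci in each group held 30.6% of their reads in UV-B and 33.1% in control leaves.

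The genome-wide test of the same difference called 65 of the 70 loci higher (quasi-likelihood test of edgeR, with p adjusted after Benjamini and Hochberg over all 23641 loci and a threshold of 0.05). It called 2.81% of all tested loci higher, and 3.08% of those of at least 5 CPM. Since the rule used this contrast, the count of 65 is a description. All UV-B values lay above all control values in 16.5% of the tested loci and in 16.8% of those of at least 5 CPM, and in each induced locus by the rule. Leaving out control replicate 2 left 41 of the 70 called and leaving out UV-B replicate 2 left 43. Over all tested loci these fits called 159 of 24234 and 212 of 24222 higher, against 664 of 23641 with all libraries. The 5 loci that missed the threshold had adjusted p from 0.0523 to 0.153 (edgeR). They were 2 loci led by UV-B replicate 1, among them the one with a ratio of 43.2, and 3 evenly raised loci with a single low control library, among them the one with 2 reads in control replicate 2. Conversely, 379 loci of at least 5 CPM were called higher without being induced by the rule, and their separation ran from 1.13 to 1.99 with a median of 1.33.

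Single libraries also kept loci out. With the scaling unchanged, 123 further loci of at least 5 CPM reached a separation of 2 when 1 library was disregarded. Control replicate 1 kept out 46 of them, control replicate 3 kept out 36, and control replicate 2 kept out 14. UV-B replicate 2 kept out 27, replicate 3 kept out 23 and replicate 1 kept out 14. Of the 123 loci, 37 could enter by leaving out more than 1 of these libraries in turn.

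The 70 induced loci stood beside 211 loci that met the same rule with the groups exchanged, that is, with every control value at least 2 times every UV-B value. This balance depended on scaling. With library size alone, which put the median log2 fold change over the tested loci at 0.23, 112 loci were induced and 135 met the exchanged rule. All 70 induced loci were among the 112. RLE factors gave 70 induced loci and 208 under the exchanged rule, and upper-quartile factors gave 84 and 179. Of the 70 loci, 67 had a Gb identifier and 3 (4.29%) another prefix, which 441 of the 14434 loci of at least 5 CPM (3.06%) had.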

How the data were processed

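RNA of seedling leaves was sequenced in 3 UV-B and 3 control libraries, grouped by their titles. The table deposited by the authors holds raw, unnormalized read counts per locus. Tools named in the submitters' processing notes, without their roles, are HTSeq 0.9.1, TopHat2 and CASAVA 1.8. Genome build, annotation and strand setting were not given in the sources used here, which leaves counts of near-identical, overlapping or antisense loci uncertain. Every row named a locus. Library totals lay between 37528794 and 47559213 counts, without molecular identifiers.

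From the counts, loci were kept by edgeR's filterByExpr by group and scaled to CPM with TMM factors, with no prior count. Groups were compared with the quasi-likelihood test of edgeR 4.0.16 in R 4.3.3 (group as the only term, two-sided, Benjamini-Hochberg adjustment over 23641 loci, threshold 0.05), checked on simulated data. With 3 libraries per group whose separate origin is not stated, p-values reflect only how these libraries vary, which may be technical. DESeq2 1.42.0, limma-voom (limma 3.58.1), other scaling, other limits, a replicate block and leaving out each library were alternatives. The named loci are the one with the largest ratio of lowest UV-B to highest control CPM and the one with the highest UV-B mean. The induced loci, lists and limits were chosen with earlier results of these data known. No table pairing identifiers with names was used, so lists by function were not applied.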

Additional observations from a re-analysis of the deposited data

How the results depend on the processing

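The number of induced loci was 70 with RLE factors (69 of them shared), 84 with upper-quartile factors, 70 without a low-count filter and 112 with library size alone. Lower or higher limits gave 150 loci at a minimum mean of 1 CPM, 42 at 10 CPM, 179 at a separation of 1.5 and 21 at 3. Leaving out 1 library gave 67 to 121 loci, with 121 without control replicate 1 and 111 without control replicate 3. Without UV-B replicate 1 the rule found 67 loci, of which 53 were among the 70, and the 17 lost had all fallen under the mean of 5 CPM. Of the 70 loci, 59 to 69 were called higher under other scaling, no filter, DESeq2 (69 with an adjusted p) and limma-voom, 52 with the replicate block, 19 at an adjusted p below 0.01, 11 with glmTreat against a 2-fold change, and 41 to 50 when 1 library was left out. Over all loci, 664 of 23641 were called higher. Of the same 23641, 666 were called with RLE factors, 939 with upper-quartile factors, 2895 with library size alone and 585 with limma-voom. The replicate block gave 248 of them, an adjusted p below 0.01 gave 55 and glmTreat gave 31. DESeq2 called 1561 of 23614, and the fit without a low-count filter 617 of 29656. With 1 library left out, 159 to 427 were called, where 23869 to 24234 loci were tested. The cause of these differences was not tested beyond the stricter limits and the fewer samples. Deviations from the group means correlated between libraries of the same number by 0.002, 0.13 and -0.05, and 2 of the 3 UV-B libraries correlated better with a control library of another number, so the replicate numbers were not treated as pairs. The median log2 fold of the 70 loci was 2.08 to 2.47 with 1 library left out and 2.501 with library size alone, and each named locus kept its direction in each fit, which the rule largely fixes. The call of Novel00971 (edgeR, adjusted p = 0.0222) was lost in 4 of the 6 fits without 1 library, whose adjusted p ranged from 0.0225 to 0.0604, and with the replicate block (adjusted p = 0.0534). That of Gb_12857 (edgeR, adjusted p = 0.0233) was lost in 3 of the 6, with a range from 0.0199 to 0.0860, and with the replicate block (adjusted p = 0.0591). In 5 loci the level in at least 1 control library rests on fewer than 10 reads, and the part of depth in this was not tested. The alternatives on the median fold, on the library that was highest and on the exchanged rule were chosen after seeing the data.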

Other observations

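Among the 67 induced loci with a Gb identifier, 1 pair had consecutive numbers. Both were highest in UV-B replicate 1 and had like ratios of means. The locus with the lower number had 20.6, 7.47 and 9.40 CPM in UV-B and 1.39, 3.24 and 2.20 CPM in control replicates 1 to 3. The locus with the higher number had 28.3, 14.8 and 16.9 CPM in UV-B and 3.04, 3.42 and 3.45 CPM in control replicates 1 to 3. The other tested loci whose number directly precedes or follows that of an induced locus included 55 of at least 5 CPM. Of these, 15 (27.3%) had all UV-B values above all control values and 5 (9.09%) were called higher (edgeR, adjusted p below 0.05), against 16.8% and 3.08% of all loci of that level. Their median log2 fold was -0.05. Whether the numbers follow position in the genome is not given in the sources used here, and the difference between these shares was not tested.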
